A study of Mus musculus with 15 samples.

Results

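The circadian clock and output genes described here are 10 genes, Dbp, Tef, Per1, Per2, Per3, Nr1d1, Nr1d2, Arntl, Clock and Cry1, of 23337 genes in the count table. They were chosen by their fold changes in CPM between the groups of these same libraries, so differences between groups are given for them as descriptions. Counts of these genes past an adjusted p are printed beside the share of all genes called, and nothing is read from those counts in any of the comparisons. All 10 passed the filter on low counts, which left 12471 genes. RNA was sequenced from cells negative for CD45 and positive for CD31, sorted by flow cytometry from mouse hearts, in 15 libraries.

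The 4 groups were KO TAC (4 libraries, mice 351 to 354), WT TAC (5 libraries, mice 134 to 138), KO sham (3 libraries, mice 348 to 350) and WT sham (3 libraries, mice 131 to 133). TAC is transverse aortic constriction, a narrowing of the aorta that loads the left ventricle with pressure, and sham is the operation without the constriction. Hearts were taken 4 weeks after surgery. KO mice were Cad5CreERT2+/+ STINGfl/fl and WT mice were Cad5CreERT2-/- STINGfl/fl, so every mouse carried STING alleles flanked by loxP sites and the WT mice lacked the Cre. The Cre is driven by the promoter of the endothelial cadherin gene and needs an oestrogen receptor ligand, which the labels do not name. A Cre-carrying control with unflanked STING is not among the groups, so the effect of the Cre and the effect of losing STING cannot be told apart. The labels give neither the sex of the mice nor the time of day at which hearts were taken, and the part of either in any difference below was not tested. Libraries are named by group and mouse number.

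The mammalian clock is a transcriptional loop that runs in nearly every cell, endothelial cells of the heart included. The proteins of Clock and Arntl (also called Bmal1) bind E-boxes and switch on the Per and Cry genes, whose proteins return to block them. The same pair drives Nr1d1 and Nr1d2, whose proteins (REV-ERBs) repress Arntl, and Dbp, which with Tef and Hlf binds D-boxes in output genes. In mouse tissues kept on a light cycle, Arntl and Dbp reach their highest levels at opposite times of day, so the level of these genes in a tissue depends on the hour at which it was taken. Per1 is in addition switched on quickly by glucocorticoids and by cAMP.

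Total counts ran from 1362346 in WT sham 133 to 15670319 in WT TAC 134. KO sham 348 and KO sham 350 stood apart, as they lacked any count for 211 and 312 genes that the other libraries' shares put at 10 or more counts, against 3 to 21 such genes in each of the remaining libraries. Tmem173, the gene of STING, had 19.6 to 30.4 CPM (counts scaled to library size) in KO TAC and 70.4 to 82 in WT TAC, and 17.3 to 31.4 in KO sham and 53.9 to 65.6 in WT sham. The 10 endothelial markers summed to between 13270 and 16460 CPM in every library, with Cdh5 at 3330 CPM or more. Of 10 leukocyte markers the sum was at most 13.29 CPM in any library, Ptprc stayed at or below 2.26 CPM and Cd3e was at 0 in both sham groups and at most 0.0797 CPM elsewhere. Since a sorted pool is measured as a whole, fewer cells of a type and less RNA per cell cannot be told apart.

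For the clock genes 1 further library stood apart. KO TAC 354 had the highest level of all 15 libraries for 7 of the 10 genes (Dbp, Tef, Per1, Per2, Per3, Nr1d1 and Nr1d2) and the lowest for Arntl. Over all genes tested the same library was highest for 5.12% and lowest for 5.5%. It also raised the KO TAC means by which the 10 genes were chosen. Its places among them therefore partly follow from that choice and are a description. Its level was 3.4 times the mean of the other 3 KO TAC libraries for Dbp, 3.19 times for Per2 and 2.45 times for Nr1d1, and for Arntl it was 0.596 times that mean. Values for KO TAC are therefore given with and without it. Within WT TAC, library 138 was above the other 4 for 5 genes (Dbp, Per1, Per2, Nr1d1 and Nr1d2) and below them for Arntl and Clock. The share of all genes for which it led or trailed its own group was not counted. Of all 15 libraries it was highest for 0 of the 10 genes and lowest for 1, against 5.25% and 5.28% of all genes tested.

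Levels per kilobase of exon, averaged over the 15 libraries, set Per1 first among the 10 genes at 37.6 ± 15.6 CPM per kb (SD, n = 15). Nr1d1 at 24.3 ± 12.7, Arntl at 20.3 ± 3.55 and Clock at 19.9 ± 1.2 followed. These 3 do not differ in order beyond their spread, since Nr1d1 was above Arntl in 6 of 15 libraries and Arntl above Clock in 10 of 15. Nr1d2 came next at 14.2 ± 4.9 CPM per kb, below Clock in 14 of 15 libraries and above Tef in 15 of 15. Tef (7.52 ± 3.94) and Cry1 (7.2 ± 1.44) exchanged places, with Tef the higher in 6 of 15. Per3 (4.12 ± 0.947), Dbp (3.85 ± 4.08) and Per2 (2.21 ± 1.7) were the lowest, and Per3 was above Dbp in 12 of 15 libraries. Dbp spread the most for its level and Clock the least. Dbp rests on 7 to 206 counts per library, so counting error is larger for it than for Clock with 191 to 2315. The exons of Dbp overlap those of Sphk2 on the other strand, and the counting used strand.

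The stretch of 250 bases before a transcription start was read for 9 of the 10 genes, in 14 windows, from RefSeq sequence on GRCm38.p6, the assembly of mm10. The motifs searched were the E-box CACGTG, the E-box variant CACGTT, the D-box TTATGTAA with its variant TTACGTAA, the REV-ERB and ROR element TAGGTCA and the cAMP element TGACGTCA, each on both strands. No motif overlapped another in the windows printed here. The windows of Tef, Per1, Cry1, Nr1d1 and Per3 are shown because they hold a match to 1 of these motifs, and that of Dbp, which holds none, because Dbp ranged most widely. Matches are in capitals, and each window runs 5′ to 3′ along the gene's strand and ends at the base before the start. Dbp lies at chr7:45704997-45705246 (plus strand), and the window shown for Per1, that of its upstream start, at chr11:69098699-69098948 (plus strand). A downstream start of Per1 has its window at chr11:69099902-69100151 (plus strand), which held no match and is not shown. Tef has 2 starts, with windows at chr15:81802423-81802672 and chr15:81811164-81811413 (both plus strand). Cry1 lies at chr10:85185055-85185304, Nr1d1 at chr11:98775378-98775627 and Per3 at chr4:151044666-151044915 (all minus strand).
Dbp: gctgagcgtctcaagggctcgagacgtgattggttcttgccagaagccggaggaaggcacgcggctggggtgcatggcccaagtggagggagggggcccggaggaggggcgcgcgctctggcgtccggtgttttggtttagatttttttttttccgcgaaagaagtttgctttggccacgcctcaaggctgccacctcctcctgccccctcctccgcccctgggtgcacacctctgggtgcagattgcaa
Tef, upstream start: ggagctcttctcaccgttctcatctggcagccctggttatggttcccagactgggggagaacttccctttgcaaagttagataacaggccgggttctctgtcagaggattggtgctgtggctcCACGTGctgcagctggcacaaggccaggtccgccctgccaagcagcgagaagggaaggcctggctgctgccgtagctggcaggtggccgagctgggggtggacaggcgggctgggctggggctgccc
Tef, downstream start: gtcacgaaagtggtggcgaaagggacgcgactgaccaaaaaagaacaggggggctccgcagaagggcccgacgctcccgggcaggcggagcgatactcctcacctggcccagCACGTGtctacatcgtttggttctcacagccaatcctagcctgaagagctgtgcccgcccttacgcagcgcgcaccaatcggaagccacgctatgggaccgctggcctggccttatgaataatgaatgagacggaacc
Per1: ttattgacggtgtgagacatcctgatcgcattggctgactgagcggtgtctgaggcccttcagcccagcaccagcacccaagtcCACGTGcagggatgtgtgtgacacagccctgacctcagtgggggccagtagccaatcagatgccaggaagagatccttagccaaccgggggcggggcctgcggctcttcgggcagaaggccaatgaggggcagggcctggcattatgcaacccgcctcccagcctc
Cry1: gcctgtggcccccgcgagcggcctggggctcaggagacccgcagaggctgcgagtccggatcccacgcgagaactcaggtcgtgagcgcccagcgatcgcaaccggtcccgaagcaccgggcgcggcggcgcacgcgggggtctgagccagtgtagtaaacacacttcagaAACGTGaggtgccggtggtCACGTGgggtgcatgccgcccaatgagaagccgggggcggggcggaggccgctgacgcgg
Nr1d1: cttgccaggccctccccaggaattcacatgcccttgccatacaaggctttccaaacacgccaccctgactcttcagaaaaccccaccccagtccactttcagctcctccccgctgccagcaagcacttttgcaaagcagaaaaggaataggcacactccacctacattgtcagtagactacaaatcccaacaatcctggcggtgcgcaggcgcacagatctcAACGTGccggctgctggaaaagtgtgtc
Per3: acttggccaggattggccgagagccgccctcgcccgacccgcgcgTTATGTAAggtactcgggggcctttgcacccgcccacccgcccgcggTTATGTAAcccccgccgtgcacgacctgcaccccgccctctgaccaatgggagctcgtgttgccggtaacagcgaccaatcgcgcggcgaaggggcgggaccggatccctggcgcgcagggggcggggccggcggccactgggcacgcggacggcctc

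The E-box was in 4 of the 14 windows, those of Cry1, the upstream start of Per1 and both starts of Tef. It was in 6.02% of all 32817 windows of this length in the table. The motif began 166 bases before the upstream start of Per1, 60 before the start of Cry1, and 127 and 138 before the starts of Tef. The E-box variant was in the windows of Cry1 and Nr1d1, at 79 and 28 bases before the start, and in 3.85% of all windows. The D-box was in the Per3 window at 205 and 158 bases before the start, and in 0.817% of all windows. The D-box variant, the REV-ERB element and the cAMP element matched no window of the 9 genes and 0.113%, 2.24% and 1.55% of all windows. A match describes letters in this window and no more.

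Among the output factors, which bind D-boxes, Dbp showed the widest range. Dbp had 7.81, 6.34, 11.8 and 29.4 CPM in KO TAC 351 to 354, against 2.72, 2.81, 2.63, 3.45 and 6.32 CPM in WT TAC 134 to 138. In the sham groups it had 1.34, 4.67 and 3.91 CPM in KO sham 348 to 350, against 5.66, 2.88 and 5.27 CPM in WT sham 131 to 133. All 4 KO TAC libraries lay above every other library, though KO TAC 352 exceeded WT TAC 138 by little, and the sham groups overlapped. The log2 fold change of KO TAC against WT TAC was 1.96 ± 0.41 (SE), and 1.31 ± 0.37 without KO TAC 354.

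Tef had 52.2, 37.8, 42.6 and 85.4 CPM in KO TAC, against 18.7, 16.3, 19.8, 28.5 and 24.1 CPM in WT TAC. Its sham levels were 22, 30.3 and 40.3 CPM in KO sham, against 34.5, 22.1 and 27.8 CPM in WT sham. The lowest KO TAC library was above the highest WT TAC library, and the sham groups overlapped. Tef was higher by 1.34 ± 0.21 on the log2 scale in KO TAC than in WT TAC, and by 1.07 ± 0.19 without KO TAC 354. Of the 10 genes it was the one whose difference was largest for its error.

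The Per genes, which encode the repressors of the loop, did not share 1 pattern. Per2 had 19.1, 11.2, 11.6 and 44.5 CPM in KO TAC, against 7.41, 5.21, 8.20, 6.91 and 9.62 CPM in WT TAC, with no overlap. Its sham levels were 6.93, 8.82 and 22.8 CPM in KO sham, against 9.43, 7.98 and 13.5 CPM in WT sham, where the groups overlapped and KO sham 350 was highest. Per2 differed between KO TAC and WT TAC by a log2 fold change of 1.52 ± 0.35, and 0.93 ± 0.30 without KO TAC 354.

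Per1 had 147, 258, 226 and 313 CPM in KO TAC, against 72.4, 129, 163, 108 and 307 CPM in WT TAC. The groups overlapped, as WT TAC 136 at 163 CPM and WT TAC 138 at 307 CPM lay above KO TAC 351 at 147 CPM. The log2 fold change was 0.61 ± 0.27. In the sham groups the order was the other way, with 122, 138 and 126 CPM in KO sham, against 162, 146 and 234 CPM in WT sham, and those groups did not overlap (-0.44 ± 0.34). Per3 had 30.4, 17.6, 26.6 and 36.8 CPM in KO TAC, against 18.9, 26.7, 15.3, 24.6 and 24.2 CPM in WT TAC, which overlapped. It had 25.9, 29.5 and 27.6 CPM in KO sham, against 24.5, 20.1 and 18.8 CPM in WT sham, with every KO sham library above every WT sham library. The log2 fold change of Per3 was 0.34 ± 0.18 between the TAC groups and 0.35 ± 0.23 between the sham groups, each less than 2 times its error.

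Nr1d1 and Nr1d2 encode the nuclear receptors that repress Arntl. Nr1d1 had 77.1, 46.8, 87.0 and 172 CPM in KO TAC, against 49.5, 42.2, 36.3, 62.1 and 74.4 CPM in WT TAC. It had 62.8, 59.8 and 57.0 CPM in KO sham, against 46.3, 46.3 and 38.4 CPM in WT sham. KO TAC 352 lay inside the WT TAC range, while the sham groups did not overlap. For Nr1d1 the log2 fold change of KO TAC against WT TAC was 0.86 ± 0.24, and 0.44 ± 0.18 without KO TAC 354.

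Nr1d2 had 67.9, 57.4, 77.8 and 137 CPM in KO TAC, against 55.7, 43.9, 50.4, 74.3 and 82.9 CPM in WT TAC. Its sham levels were 53.1, 69.3 and 50.8 CPM in KO sham, against 60.8, 52.0 and 56.4 CPM in WT sham. Both pairs of groups overlapped. Its log2 fold change of KO TAC against WT TAC, 0.47 ± 0.20, was 0.17 ± 0.16 without KO TAC 354.

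Arntl and Clock encode the activating pair. Arntl had 50.9, 55.8, 54.8 and 32.1 CPM in KO TAC, against 56.8, 62.0, 65.1, 56.8 and 55.8 CPM in WT TAC. It had 76.1, 58.9 and 67.9 CPM in KO sham, against 73.2, 63.6 and 57.9 CPM in WT sham. Every KO TAC library was below every WT TAC library, by a margin that vanished at 3 digits between KO TAC 352 and WT TAC 138. Its log2 fold change was -0.29 ± 0.12, and -0.12 ± 0.10 without KO TAC 354.

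Clock was the steadiest of the 10 genes. It ran from 150 to 166 CPM in KO TAC and from 136 to 155 CPM in WT TAC, and from 139 to 158 CPM in KO sham and from 144 to 149 CPM in WT sham. Both pairs of groups overlapped, and the log2 fold change was 0.15 ± 0.07 between the TAC groups and 0.01 ± 0.08 between the sham groups.

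Cry1, a repressor that acts with the Per proteins, differed most in another pair of groups. Cry1 had 20.2, 21.4, 20.5 and 24.7 CPM in KO TAC, against 25.2, 21, 25, 25.2 and 22.4 CPM in WT TAC, which overlapped. It had 17.1, 17.0 and 10.7 CPM in KO sham, against 27.3, 26.2 and 21.8 CPM in WT sham. All 3 KO sham libraries were below every library of the other 3 groups, and KO sham 350, 1 of the libraries that stood apart, was the lowest. The log2 fold change of KO sham against WT sham was -0.76 ± 0.17, and -0.61 without KO sham 348 and 350, which leaves 1 KO sham library assumed to vary like the other groups.

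**Figure D1:**
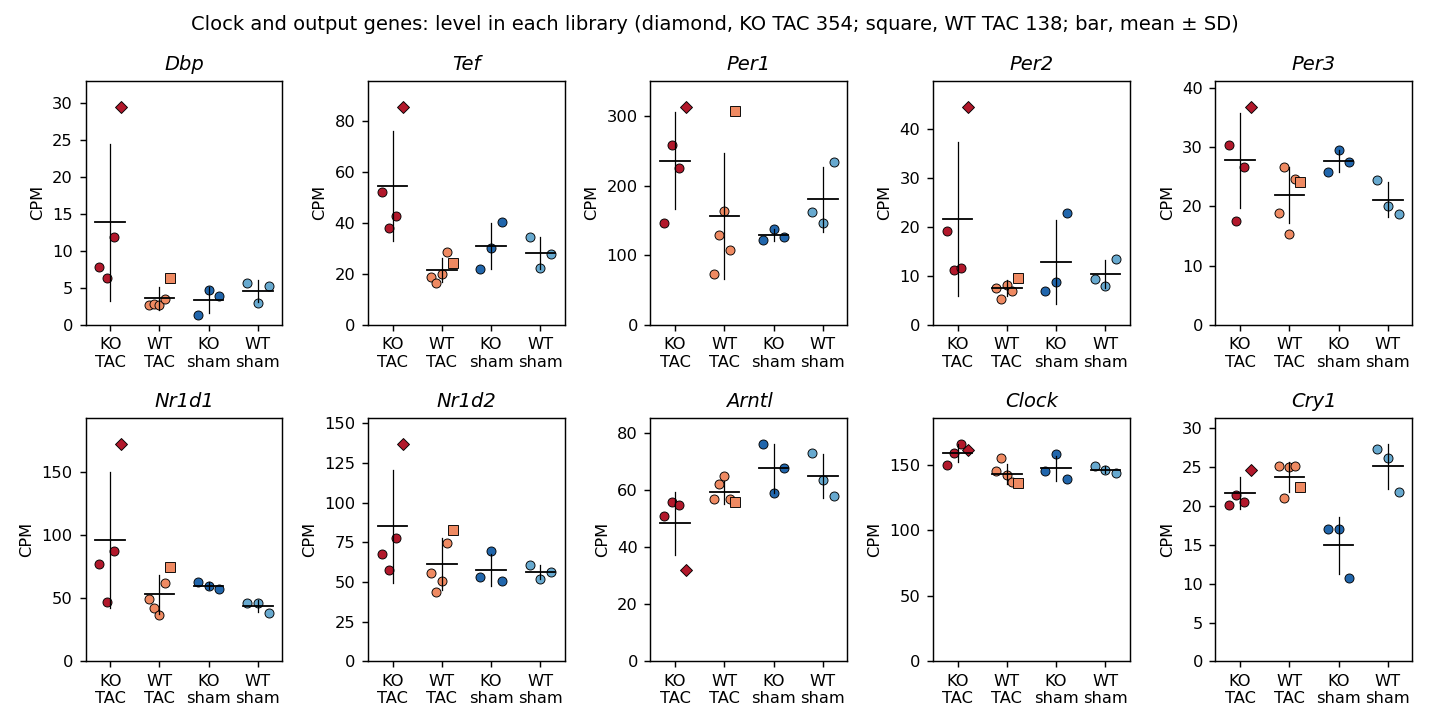
Level of each of the 10 genes in CPM (vertical axes, from 0) in the 15 libraries, by group, with the mean as a bar and the SD as a line. The diamond is KO TAC 354, highest of all libraries for 7 genes and lowest for Arntl, and the square is WT TAC 138.

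Set against all genes, 4 of the 10 (Dbp, Tef, Per2 and Nr1d1) were higher in KO TAC than in WT TAC at an adjusted p under 0.05 by edgeR's quasi-likelihood test and 0 were lower, where 29.8% of all genes tested were called, 14.8% as higher and 15% as lower. The groups did not overlap for Dbp, Tef and Per2, higher, and Arntl, lower, against 30.7% of all genes, 15% higher and 15.7% lower. Their median log2 fold change was 0.54 and that of all genes tested -0.02. Without KO TAC 354 the count was 3 of 10 (Dbp, Tef and Per2), where 27.1% of all genes were called. Other RNA differed between these groups too: the sum of 12 cardiomyocyte markers was 123.2 to 208 CPM in KO TAC and 245.7 to 285.1 CPM in WT TAC, and that of 10 fibroblast markers 100.2 to 189.4 CPM in KO TAC and 283.3 to 356.5 CPM in WT TAC. The endothelial sum was 13270 to 14020 CPM in KO TAC and 15030 to 16460 CPM in WT TAC. The part of these cells in the levels of the clock genes was not tested.

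Between the sham groups 1 of the 10 genes, Cry1, was called, as lower, where 9.21% of all genes were called, 4.57% as higher and 4.63% as lower. The groups did not overlap for Nr1d1 and Per3, higher, and for Per1 and Cry1, lower, against 22.4% of all genes, 10.3% higher and 12.1% lower. The median log2 fold change of the 10 genes was 0.04. The sum of 10 pericyte and smooth muscle markers was 181.6 to 330.9 CPM in KO sham and 157.3 to 188.9 CPM in WT sham, and that of 16 immediate early genes 4514 to 5431 CPM in KO sham and 5541 to 8157 CPM in WT sham. Their part in the result was not tested.

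Within KO mice, TAC against sham called Dbp, Tef and Cry1 as higher and Arntl as lower, 4 of 10, where 9.59% of all genes were called, 4.65% as higher and 4.94% as lower. The log2 fold changes of KO TAC against KO sham were 2.05 ± 0.51 for Dbp, 0.83 ± 0.25 for Tef, 0.51 ± 0.16 for Cry1 and -0.47 ± 0.14 for Arntl. Dbp, Per1 and Cry1 were higher and Arntl lower with no overlap between the groups, against 17.6% of all genes, 9.18% higher and 8.41% lower. Per1 was higher by 0.87 ± 0.32 and Per2 by 0.79 ± 0.41. Without KO TAC 354 these calls fell to 0 of 10, where 8.09% of all genes were called, with Dbp at 1.40 ± 0.45, Tef at 0.54 ± 0.22 and Per2 at 0.18 ± 0.35. They were also 0 of 10 without KO sham 348 and 350. The cardiomyocyte sum was 123.2 to 208 CPM in KO TAC and 260.5 to 363.9 CPM in KO sham, and its part was not tested.

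Within WT mice, 0 of the 10 genes were called between TAC and sham, by edgeR and by DESeq2 alike, and 0 had an unadjusted p under 0.05. Of all genes 2.59% were called, 1.6% as higher and 0.986% as lower, and 15% had an unadjusted p under 0.05. None of the 10 was without overlap, against 14.6% of all genes, 7.91% higher and 6.71% lower. The log2 fold changes of WT TAC against WT sham lay between -0.40 ± 0.25 for Tef and 0.23 ± 0.28 for Nr1d1, with Dbp at -0.33 ± 0.50 and Per2 at -0.36 ± 0.43. The fibroblast sum, at 283.3 to 356.5 CPM in WT TAC and 97.43 to 161.8 CPM in WT sham, did not overlap between the same groups, and its part was not tested.

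The difference of the TAC effects (KO TAC less KO sham, minus WT TAC less WT sham) was 2.39 ± 0.70 on the log2 scale for Dbp, 1.23 ± 0.35 for Tef, 1.14 ± 0.59 for Per2 and 1.05 ± 0.44 for Per1. For Cry1 it was 0.62 ± 0.22. Without KO TAC 354 these values were 1.73 ± 0.61 for Dbp, 0.94 ± 0.30 for Tef, 0.54 ± 0.48 for Per2, 0.89 ± 0.44 for Per1 and 0.56 ± 0.23 for Cry1. By edgeR 0 of the 10 genes were called, and 4 had an unadjusted p under 0.05. Of all genes 0.69% were called, 0.2% as higher and 0.489% as lower, and 14.6% had an unadjusted p under 0.05. DESeq2 called 2 of the 10, Dbp and Tef, and 317 of all genes tested. The pairs of comparisons share libraries: KO TAC enters 2 of the 4 pairwise ones, and so does each other group.

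**Figure D2:**
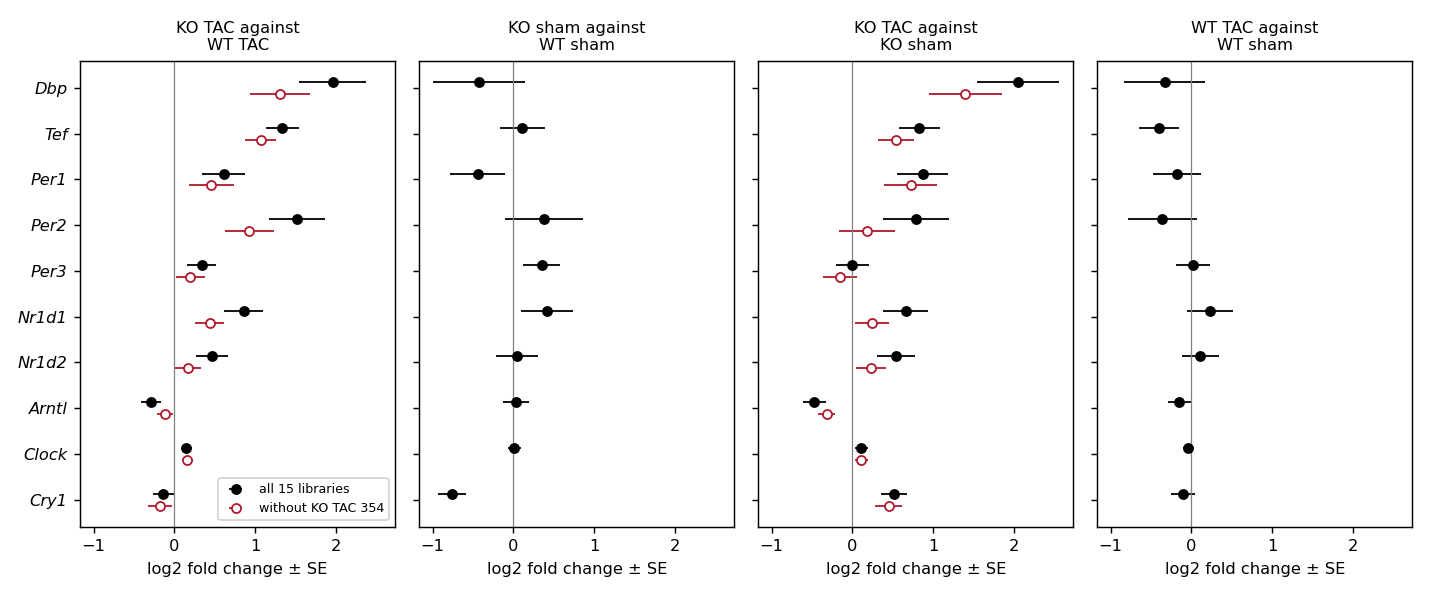
Log2 fold change with its SE (horizontal axes) of each of the 10 genes in the 4 pairwise comparisons, with all 15 libraries (filled) and, for comparisons with KO TAC, without KO TAC 354 (open). Leaving that library out moves Dbp, Per2 and Nr1d1 towards 0, and in KO TAC against WT TAC Dbp, Tef and Per2 stay 0.93 or more above 0.

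The libraries were also set in order by 1 summary, the mean log2 CPM of Dbp, Tef, the 3 Per genes, Nr1d1 and Nr1d2 less that of Arntl and Clock, which serves only to compare libraries. It was -1.10, -1.55, -1.17 and 0.23 in KO TAC 351 to 354, against -2.13, -2.23, -2.15, -1.74 and -1.30 in WT TAC 134 to 138. It was -2.25, -1.68 and -1.58 in KO sham and -1.80, -2.04 and -1.62 in WT sham. KO TAC 351, 353 and 354 held the 3 highest places of 15, WT TAC 138 the fourth place and KO TAC 352 the fifth. The genes were chosen by group differences in these same libraries and Cry1 was left out, so the choice partly sets the places of the groups.

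Within groups, log2 CPM less the group mean was correlated for each of the 45 pairs of genes over the 15 libraries. KO TAC 354 lies far from its group for most of these genes and also raised the KO TAC means by which they were chosen, so values over all 15 libraries are a description. All genes of a library share its depth, its cells and its hour of collection. Nr1d1 and Nr1d2 were the most alike (r = 0.90, rho = 0.84). Dbp and Nr1d2 followed (r = 0.82, rho = 0.72), and Tef with Per2 (r = 0.82, rho = 0.74).

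Without KO TAC 354 the same pairs had r of 0.80, 0.68 and 0.70. With 100000 two-sided permutations within groups and adjustment over the 45 pairs, 0 pairs passed for r without that library, and 5 had an unadjusted p under 0.05. With all 15 libraries 3 pairs passed for r and 0 for rho, and the count for r was 0 without WT TAC 138 and without each of KO TAC 351, 352 and 353, 1 without WT TAC 134 and 5 without WT sham 131. Arntl had r of -0.74 to Dbp and -0.77 to Nr1d2 over 15 libraries, and -0.49 and -0.46 without KO TAC 354. With the other 9 genes r lay between -0.43 and 0.33 for Clock and between -0.30 and 0.39 for Cry1. Without KO TAC 354 the lowest values were -0.67 for Clock and -0.72 for Cry1, both with Per2, and the highest was 0.32, between Clock and Cry1.

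**Figure D3:**
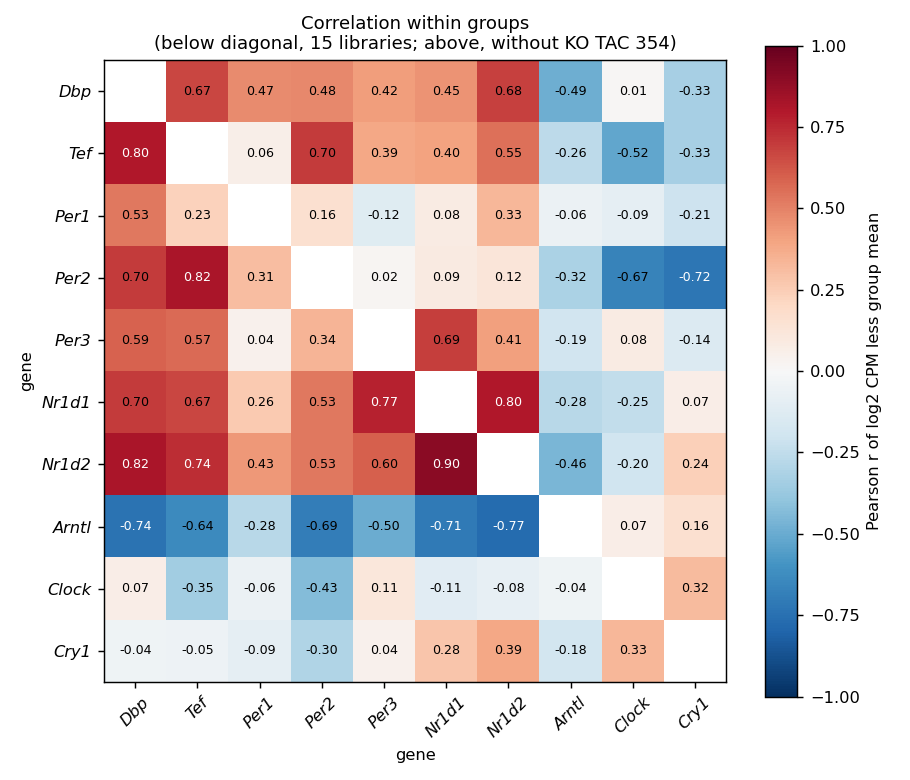
Pearson r of log2 CPM less the group mean for the 45 pairs of genes, over 15 libraries below the diagonal and without KO TAC 354 above it, with red for positive and blue for negative values. Dbp, Tef, Per2, Nr1d1 and Nr1d2 are positive with each other and negative with Arntl, and most values are nearer 0 above the diagonal.

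**Figure D4:**
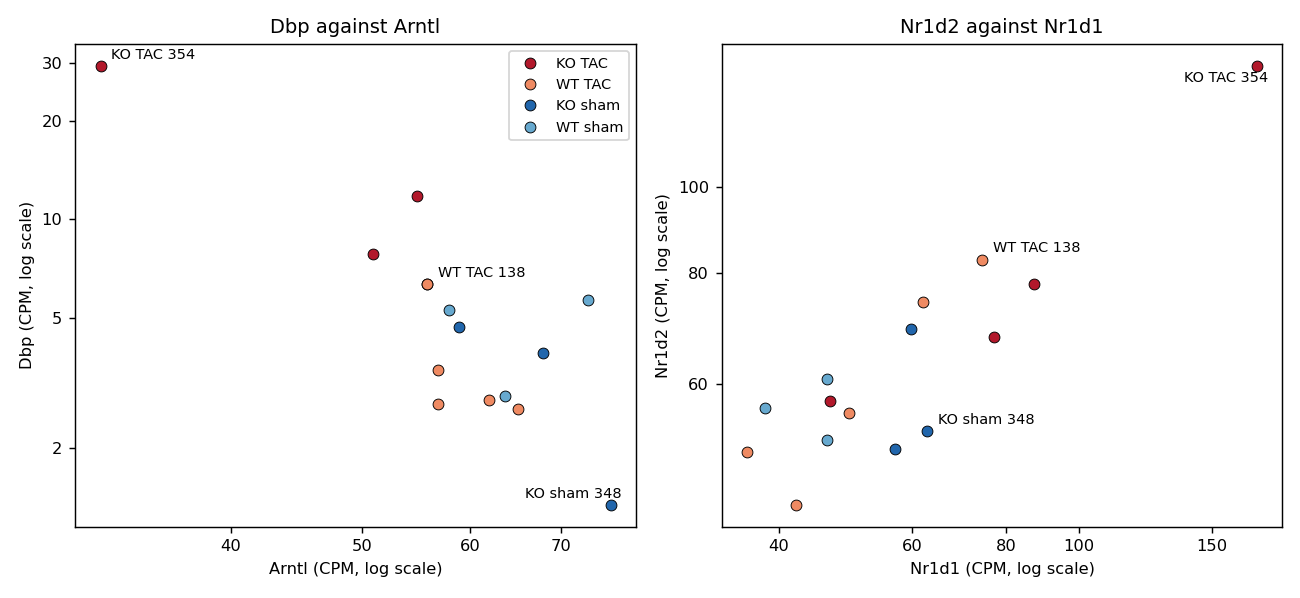
Dbp against Arntl (left) and Nr1d2 against Nr1d1 (right) in CPM on log axes, 1 point for each of 15 libraries. KO TAC 354 is the farthest point in both, at 29.4 CPM of Dbp and 32.1 CPM of Arntl, and KO TAC 352 lies under WT TAC 138 on the left.

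Outside the 10 genes, the genes whose levels within groups ran most like Dbp were Acer2 (r = 0.90 over 15 libraries, 0.84 without KO TAC 354), Cpne1 (0.86) and St6galnac4 (0.84), out of 9910 genes with a mean of at least 5 CPM. Running most against Dbp were Wbscr22 (-0.87), Capn1 (-0.86) and Pcsk6 (-0.84). For Arntl the most alike were Tspan18 (0.89), Hif1an (0.88) and Jmjd8 (0.87). Among those most against Arntl were Psmb8 (-0.88) and Hras1 (-0.87). Without KO TAC 354, r to Arntl was 0.65 for Tspan18 and 0.60 for Hif1an. These values rank genes and carry no test.

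A list of 21 other clock genes, written from textbook knowledge, held 18 that passed the low-count filter. In KO TAC against WT TAC 2 of them were higher and 2 lower, against 29.8% of all genes called, and the median log2 fold change of the 18 was 0.02. In KO sham against WT sham 1 was higher and 1 lower, against 9.21% of all genes. The counts were 1 and 0 in WT TAC against WT sham, against 2.59% of all genes. In KO TAC against KO sham the counts were 2 and 2, against 9.59% of all genes. In the difference of the TAC effects 0 were called by edgeR, against 0.69% of all genes. There 2 of the 18 had an unadjusted p under 0.05, against 14.6% of all genes. Rorb and Bhlhe41 were among those that did not pass the filter.

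Gm129 (Ciart), a repressor of the activating pair, was higher in both comparisons of KO TAC. It had 7.5, 5.97, 7.77 and 6.27 CPM in KO TAC, against 2.03, 3.61, 1.05, 2.09 and 3.02 CPM in WT TAC, 2.57, 3.45 and 2.06 CPM in KO sham and 1.6, 1.63 and 3.76 CPM in WT sham. Every KO TAC library was above every other library, and KO TAC 354 was not the highest. The log2 fold change of KO TAC against WT TAC was 1.55 ± 0.33 (edgeR, adjusted p = 0.00119), and 1.61 ± 0.37 without KO TAC 354. Against KO sham it was 1.32 ± 0.40 (edgeR, adjusted p = 0.0391), and 1.37 ± 0.44 without KO TAC 354 (edgeR, adjusted p = 0.0559), and that call was lost in 8 of 20 alternatives.

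Bhlhe40 (Dec1), a repressor that competes for E-boxes, was higher in all 4 pairwise comparisons. Its log2 fold change was 0.49 ± 0.12 in KO TAC against WT TAC (edgeR, adjusted p = 0.00406), 0.53 ± 0.16 in KO sham against WT sham (edgeR, adjusted p = 0.0398), 0.56 ± 0.14 in KO TAC against KO sham (edgeR, adjusted p = 0.0149) and 0.60 ± 0.14 in WT TAC against WT sham (edgeR, adjusted p = 0.0268). Over 20 alternatives these adjusted p ran up to 0.0131, 0.197, 0.445 and 0.214 by edgeR or DESeq2, and the calls were lost in 0, 9, 2 and 5 of them. Timeless was lower in KO TAC than in WT TAC (-0.47 ± 0.15, edgeR, adjusted p = 0.0258, range 0.000843 to 0.101 over 20 alternatives). It was also lower in KO sham than in WT sham (-0.73 ± 0.20, edgeR, adjusted p = 0.0245), a call lost in 7 of 20 alternatives. Over these the log2 fold change of Timeless between the sham groups ran from -1.17 to -0.17. KO sham 348 and 350, the libraries that stood apart, had 38.3 and 34.8 CPM of Timeless. KO sham 349 had 73.4 CPM, against 78.8 to 85.8 CPM in WT sham. Btrc was lower in KO TAC than in KO sham (-0.40 ± 0.10, edgeR, adjusted p = 0.0185, range 0.0108 to 0.311). Nfil3, which represses through the D-box, was lower in KO TAC than in KO sham (-0.88 ± 0.28, edgeR, adjusted p = 0.0497), a call lost in 17 of 20 alternatives.

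Cry2, Hlf and Npas2 passed the test in none of the 5 comparisons. Hlf, which activates through the D-box as Dbp and Tef do, had 3.17 to 5.56 CPM in KO TAC and 2.71 to 5.36 CPM in WT TAC, and 0 to 3.02 CPM in KO sham and 4.14 to 5.27 CPM in WT sham. Its log2 fold change of KO TAC against WT TAC was 0.17 ± 0.40, while Dbp and Tef had 1.96 and 1.34. Cry2 differed by 0.37 ± 0.16 and Npas2, which can stand in for Clock, by 0.82 ± 0.57 between the TAC groups.

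**Figure D5:**
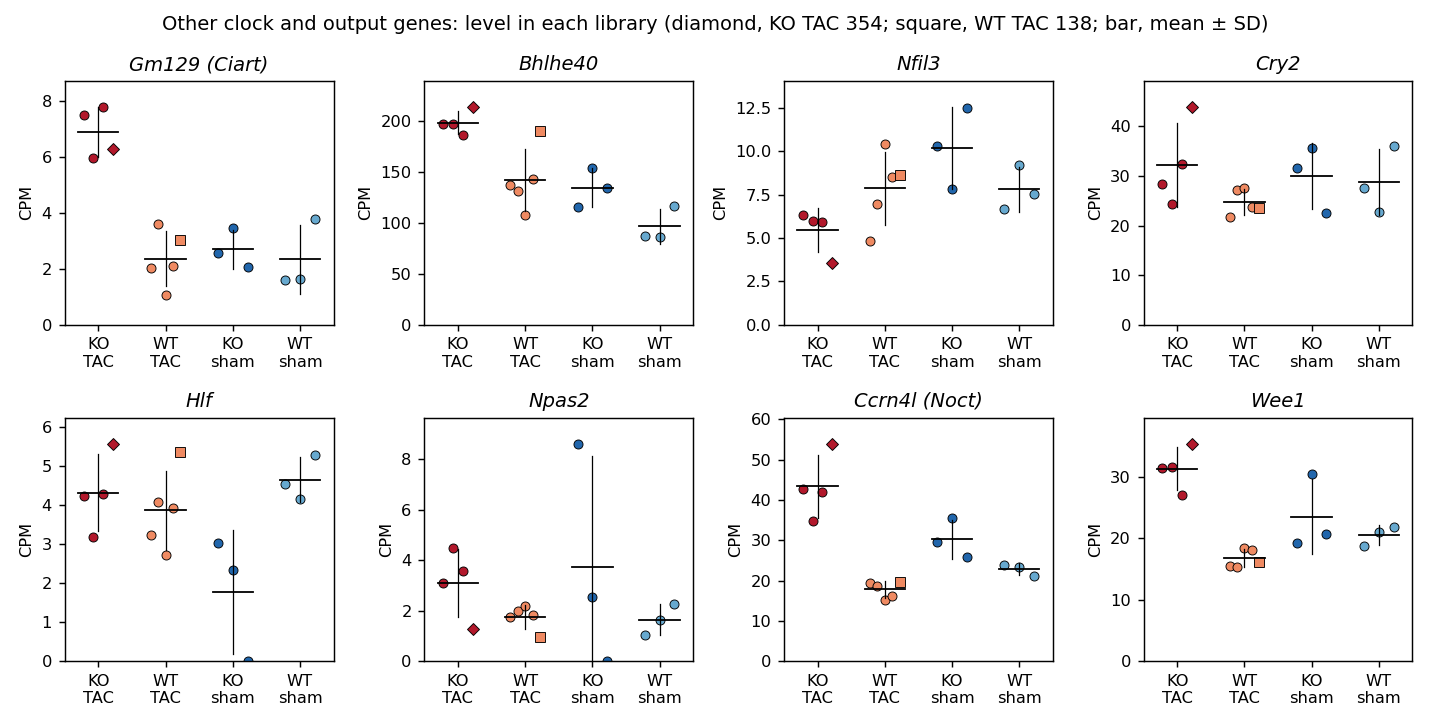
Level in CPM (vertical axes, from 0) of 8 other clock and output genes in the 15 libraries, by group, with the mean as a bar and the SD as a line. Gm129 has all 4 KO TAC libraries at 5.97 CPM or more and all others at 3.76 CPM or less, and Hlf and Npas2 overlap between the TAC groups.

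A second list held 19 genes known as rhythmic outputs in mouse tissues, all of which passed the filter. In KO TAC against WT TAC 4 were higher and 4 lower, against 29.8% of all genes called. Ccrn4l (Noct), a rhythmic phosphatase, had 42.8, 34.8, 41.9 and 53.9 CPM in KO TAC, against 19.5, 18.7, 15.2, 16.1 and 19.7 CPM in WT TAC, and was higher by 1.28 ± 0.13 (edgeR, adjusted p = 2.3e-07). Wee1, a cell cycle kinase driven by the clock in mouse liver, had 31.4, 31.7, 27.0 and 35.4 CPM in KO TAC, against 15.6, 15.4, 18.5, 18.2 and 16.2 CPM in WT TAC (0.90 ± 0.14, edgeR, adjusted p = 3.05e-05). Neither gene overlapped between these groups. Alas1, the first enzyme of haem synthesis, was higher by 0.48 ± 0.10 (edgeR, adjusted p = 0.000887). Its sham levels were 48.2 to 60.5 CPM in KO sham, against 30.6 to 40.6 CPM in WT sham, also without overlap.

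The lower genes of this list were Pim3 (-1.01 ± 0.17, edgeR, adjusted p = 0.000109), Thbd (-0.96 ± 0.08, edgeR, adjusted p = 1.18e-08), Herpud1 (-0.64 ± 0.10, edgeR, adjusted p = 6.11e-05) and Por (-0.36 ± 0.10, edgeR, adjusted p = 0.012). Thbd, the thrombin receptor thrombomodulin, had 623 to 722 CPM in KO TAC, against 1210 to 1450 CPM in WT TAC. Its sham levels were 673 to 722 CPM in KO sham, against 906 to 1150 CPM in WT sham, so KO TAC and KO sham overlapped. The same list gave 2 higher and 2 lower in KO sham against WT sham (9.21% of all genes called), 1 and 0 in WT TAC against WT sham (2.59%) and 2 and 1 in KO TAC against KO sham (9.59%). In the difference of the TAC effects 0 passed by edgeR, against 0.69% of all genes. There 8 of the 19 genes had an unadjusted p under 0.05, against 14.6% of all genes.

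A further list held 12 genes that glucocorticoids induce, of which 10 passed the filter. In KO TAC against WT TAC 2 were higher and 4 lower, against 29.8% of all genes called. Against KO sham, KO TAC had 3 higher and 0 lower, where 9.59% of all genes were called. The counts were 1 and 0 in KO sham against WT sham (9.21% of all genes) and 1 and 0 in WT TAC against WT sham (2.59%). For the difference of the TAC effects they were 0 and 0 by edgeR (0.69%). Cdkn1a, a cell cycle inhibitor, had 694 to 764 CPM in KO TAC and 160 to 395 CPM in WT TAC, and was higher by 1.54 ± 0.19 on the log2 scale (edgeR, adjusted p = 3.72e-06). Its sham levels were 462 to 509 CPM in KO sham, against 194 to 333 CPM in WT sham, also without overlap. Fkbp5 had 27.4, 34.0, 28.7 and 59.9 CPM in KO TAC, against 24.7, 20.9, 20, 18.8 and 36.1 CPM in WT TAC, and was higher by 0.64 ± 0.21 on the log2 scale (edgeR, adjusted p = 0.0218). That value was 0.35 ± 0.18 without KO TAC 354 (edgeR, adjusted p = 0.162), and the call was also lost without WT TAC 136 and without WT TAC 137. Tsc22d3 was lower in KO TAC than in WT TAC, with a log2 fold change of -0.62 ± 0.19 (edgeR, adjusted p = 0.0157, range 0.00255 to 0.0723 over 20 alternatives), with 142, 187, 164 and 234 CPM in KO TAC, against 195, 202, 317, 262 and 420 CPM in WT TAC. The other lower genes were Ddit4 (-0.80 ± 0.28, edgeR, adjusted p = 0.0354), Sgk1 (-0.48 ± 0.17, edgeR, adjusted p = 0.0404) and Nfkbia (-0.44 ± 0.16, edgeR, adjusted p = 0.0441), and these calls were lost in 6, 7 and 10 of 20 alternatives. Fkbp5, Zbtb16, Klf9, Tsc22d3, Sgk1, Errfi1, Cdkn1a and Dusp1 were each highest of their group in KO TAC 354 and in WT TAC 138. These libraries also led their groups for Dbp and Per1. Ddit4 and Nfkbia were highest in KO TAC 354, but within WT TAC in library 136 (368 and 374 CPM, against 337 and 358 CPM in 138). The share of all genes with this pattern was not counted. Whether these genes and the clock genes share a cause in those libraries was not tested.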

How the data were processed

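Per the labels' protocols, extraction used an RNeasy Plus kit and library construction a TruSeq kit. Reads were aligned with HISAT2 2.1.0 to mm10, per the submitters' processing notes. The authors deposited 1 table of counts, the reads assigned to the exons of each gene, made by featureCounts 1.6.2 (strand setting 2) on UCSC's annotation of mm10, with no option for reads that map or overlap more than once, per the file headers. The 10 genes, the gene lists, the tests and the alternatives were chosen with earlier results of these data known. All 15 columns matched a sample by mouse number and surgery, and the labels name 1 batch.

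Counts were fitted with edgeR 4.0.16 (R 4.3.3) to all 15 libraries, after filterByExpr (minimum count 10, minimum total 15) and TMM scaling (factors 0.9599 to 1.031), with 1 coefficient per group and 11 residual degrees of freedom. The quasi-likelihood test was two-sided, with Benjamini-Hochberg adjustment over 12471 genes within each of 5 comparisons and a threshold of 0.05. CPM uses TMM-scaled totals. Log2 CPM for correlations has a prior count of 2. SE is the log2 fold change over the root of F. The fit was tested on simulated data that held no library standing apart as KO sham 348 and KO sham 350 did, so that test does not cover such libraries. Each library is 1 mouse, so p-values set differences between groups against the spread between mice. That spread was estimated over all groups together, with KO sham 348 and KO sham 350 included. Intervals of levels are SDs between libraries, and reads carry no molecular identifiers.

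Named genes were the 10 genes, then of each list those past the threshold in any comparison (at most 6 with the smallest p per comparison), with Npas2, Hlf, Nfil3, Ciart, Cry2, Bhlhe40 and Bhlhe41 always, and the 6 genes with the highest and the 6 with the lowest correlation to Dbp and to Arntl, of which the text gives those that describe a comparison. Of 130 list entries 126 matched by symbol and 4 by synonym in a RefSeq table. Sequences are RefSeq's on GRCm38.p6. Alternatives were DESeq2 1.42.0, RLE factors, no low-count filter, only the groups compared, leaving out KO sham 348 and 350, and leaving out each library in turn. The alternatives for the listed genes beyond the 10, and the like-gene values without KO TAC 354, were added after seeing the data. Some tested genes are not reported here.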

Additional observations from a re-analysis of the deposited data

Results flagged for a closer look

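Of 56 groups of 4 or 5 libraries checked over 28 genes (the 10 clock genes and 18 other clock genes), 2 held a library whose distance from its nearest neighbour took more of the group's range than Dixon's critical value. Chance gives about 1 such group in 20. Dbp had 6.32 CPM in WT TAC 138, against 2.63 to 3.45 CPM in the other 4 WT TAC libraries, a gap of 0.777 of the range. Nfil3 had 3.56 CPM in KO TAC 354, against 5.93 to 6.3 CPM in the other 3 KO TAC libraries, a gap of 0.865 of the range. The cause of neither was tested.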

How the results depend on the processing

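In KO TAC against WT TAC the log2 fold changes over 20 alternatives were 1.31 to 2.23 for Dbp, 1.07 to 1.5 for Tef, 0.93 to 1.75 for Per2 and 0.44 to 1.1 for Nr1d1, and since the genes were chosen by these differences their calls are no sign of stability. In KO sham against WT sham 1148 genes were called, 298 with only the groups compared and 394 without KO sham 348 and 350, with 0 and 0 of the 10 clock genes (1 otherwise) and 0 and 1 of the other clock genes (2 otherwise). In WT TAC against WT sham 323 genes were called, 507 by DESeq2, 746 with only the groups compared (2 other clock genes, 1 otherwise) and 695 without KO sham 348 and 350. In KO TAC against KO sham 1196 genes were called, 378 with only the groups compared and 191 without KO sham 348 and 350, with 1 and 0 of the 10 clock genes (4 otherwise) and 1 and 0 of the other clock genes (4 otherwise). In the difference of the TAC effects 86 genes were called, 317 by DESeq2, 174 with no low-count filter and 3 without KO sham 348 and 350, and 2 of the 10 clock genes by DESeq2 and 2 with no filter (0 otherwise). These alternatives change the number of samples or genes by construction, or the tool, and the cause was not tested further.

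In KO TAC against KO sham the calls of the 10 clock genes numbered 1 without KO sham 348, 2 without KO TAC 351 and 0 without KO TAC 354, and the adjusted p by edgeR or DESeq2 ran over 20 alternatives to 0.315 for Dbp, 0.271 for Tef, 0.605 for Arntl and 0.436 for Cry1.

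Leaving out 1 library gave 2868 to 4539 genes in KO TAC against WT TAC, with 3 to 6 of the 10 clock genes and 3 to 6 of the other clock genes. The ranges were 505 to 2014, 1 to 1 and 0 to 2 in KO sham against WT sham, 109 to 543, 0 to 0 and 0 to 1 in WT TAC against WT sham, 695 to 2372, 0 to 4 and 1 to 7 in KO TAC against KO sham, and 25 to 764, 0 to 1 and 0 to 1 in the difference of the TAC effects. The pairs of clock genes correlated after adjustment numbered 0 to 5. Ppara reversed in KO TAC against KO sham, at 0.88 (edgeR, adjusted p = 0.888) without KO sham 348 and 350, against -3.11 (edgeR, adjusted p = 0.0463) with all libraries. No paired analysis was possible because the groups share no mouse numbers. Depth limits Dbp most, with 7 counts in its lowest library.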

Other observations

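Immediate early genes, which respond to stimuli and to handling of cells within minutes and with which Per1 is induced, were listed beside the clock genes. Of 16 such genes 3 were higher and 5 lower in KO TAC than in WT TAC, where 29.8% of all genes were called. Atf3 (log2 fold change 0.89 ± 0.18, edgeR, adjusted p = 0.000685), Fosb (0.87 ± 0.22, edgeR, adjusted p = 0.00406) and Egr3 (0.98 ± 0.32, edgeR, adjusted p = 0.0249) were higher. Ier2, Ier3, Jun, Junb and Zfp36 were lower, with log2 fold changes of -0.73, -0.73, -0.31, -0.60 and -0.59. In KO sham against WT sham 0 were higher and 6 lower, where 9.21% of all genes were called, with Fos at -0.67 ± 0.16 (edgeR, adjusted p = 0.0105). The genes of this list summed to 4265 to 5300 CPM in KO TAC and 4373 to 6634 CPM in WT TAC, which overlapped.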
